A study of Mus musculus with 6 samples.

Results

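The genes described here encode the subunits of the GABA and glutamate receptors, the receptors through which most fast inhibitory and excitatory signals pass in the brain. The rule took them by gene symbol, as the genes of the GABA-A, GABA-B, AMPA, NMDA, kainate, delta and metabotropic glutamate receptor families. Of the 19938 genes that the array annotation names alone on at least 1 of its 35556 transcript clusters (probe sets for 1 transcribed locus), 41 met the rule. They comprised 16 GABA-A, 2 GABA-B, 4 AMPA, 6 NMDA, 5 kainate, 1 delta and 7 metabotropic glutamate receptor genes. Family members without a cluster of their own name were not analysed here. For each gene the cluster with the highest mean over all arrays was used.

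Whole brain RNA was compared between 3 mice injected intraperitoneally with lipopolysaccharide (LPS) from Escherichia coli at 4 mg/kg and 3 mice injected with phosphate-buffered saline (PBS), the vehicle. All were male C57BL6 mice bought at 7 to 8 weeks of age, killed 48 hours after injection and perfused with PBS, and each brain was hybridized to its own Affymetrix Mouse Gene 1.0 ST array. The comparison asks whether peripheral inflammation is accompanied by a change in the brain's receptor transcripts. A whole brain pools every region, so a change in 1 nucleus is diluted, and in such bulk samples fewer cells of a type and less RNA per cell cannot be told apart.

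GABA-A receptors are chloride channels built from 5 subunits, and their subunit makeup decides where they sit and which drugs they bind. GABA-B receptors are pairs of G-protein-coupled subunits that open potassium channels and dampen transmitter release. Among glutamate receptors, AMPA receptors carry the fast excitatory current, NMDA receptors admit calcium and trigger synaptic plasticity, kainate receptors tune both sides of the synapse, and delta receptors act mainly as synaptic adhesion proteins. Metabotropic glutamate receptors signal through G proteins, and many of them sit on nerve terminals and lower transmitter release. Inflammatory mediators are known to move such receptors into and out of the synaptic membrane, which transcript levels do not show.

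The LPS response was present in every LPS-treated brain. Lcn2, the gene of the iron-sequestering protein lipocalin 2, had log2 expression values of 11.18, 10.89 and 10.80 in LPS-treated mice, against 6.33, 6.21 and 5.71 in PBS-treated mice, listed by replicate number as all values below are. Saa3, a serum amyloid gene, had 10.01, 9.90 and 10.10 in LPS-treated mice, against 6.96, 6.45 and 5.98 in PBS-treated mice. Irf7, an interferon regulatory factor, averaged 8.00 ± 0.27 after LPS and 5.39 ± 0.13 after PBS (SD, n = 3 each). All 8 genes fixed as a check of the LPS response passed the limma test. The paper lists each of these 8 as raised in its own array comparison, so their passing was known beforehand and is no independent test. Tbp, a housekeeping gene, averaged 10.45 ± 0.17 after LPS and 10.46 ± 0.09 after PBS. All 10 pan-neuronal markers lay above background on every array, and the log2 of their summed linear values ran from 15.67 to 15.73 after LPS and from 15.64 to 15.72 after PBS. The LPS arrays did not form 1 group: a principal component analysis put replicates 1 and 2 on one side and replicate 3 with the PBS arrays, along an axis carrying 54.5% of the variance. Over all clusters, LPS replicates 1 and 2 had medians of 7.09 and 7.11, LPS replicate 3 had 6.96, and the PBS arrays had 6.95 to 6.98. Values without LPS replicate 3, or without replicates 1 and 2, are given where they move a result most.

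Many LPS-induced genes are switched on through a promoter element, the interferon-stimulated response element, whose core is a GAAA half-site repeated after 2 bases of any kind. In RefSeq promoters (GRCm38.p6), windows from 250 bases before to 50 after the start were searched for this core on both strands, without other motifs. Of 38 windows found for 31 of the receptor genes, 1 held the core, or 2.63%, against 3.44% of all 32851 windows. That window belonged to Grm8, a metabotropic glutamate receptor gene. Among the LPS check genes, 2 of 6 with a window held it, Saa3 and Ifitm3. The stretches of Grm8 and Saa3 are shown so that the receptor gene with the core can be read beside an induced gene with it, in the direction of the gene, with the core in capitals.
Grm8, chr6:28126593-28126662, minus strand: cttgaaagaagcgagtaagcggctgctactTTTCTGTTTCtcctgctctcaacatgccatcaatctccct
Saa3, chr7:46715762-46715831, minus strand: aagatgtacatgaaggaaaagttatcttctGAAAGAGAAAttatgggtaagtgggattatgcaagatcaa
In Grm8 the core lay on the opposite strand, so that the capitals show its reverse complement, and its first base stood at position -206 from the start. In Saa3 it lay on the same strand, at position -125. Grm8 had log2 values of 8.22, 8.37 and 8.24 in LPS-treated mice, against 8.36, 8.25 and 8.25 in PBS-treated mice, and the groups overlapped. Its log2 fold change (LPS minus PBS throughout) was -0.01, with a 95% confidence interval of -0.20 to 0.19, where Saa3 had 3.54, with an interval of 2.99 to 4.08. A match of letters is no evidence that a factor binds there.

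None of the 41 receptor genes passed the limma test at an adjusted p under 0.05, against 0.714% of all clusters. The smallest adjusted p among them was 0.287. The unmoderated 2-group test of the study's methods, run on the same values, also called none after adjustment. It called 0.0141% of all clusters, so calls among the receptor genes were hardly possible. It gave 3 genes at an unadjusted p under 0.05, all higher, Gabrb2, Gabrg3 and Gabrr3, or 7.32% against 11.9% of all clusters. At an unadjusted p under 0.05 in limma, 2 were higher in LPS-treated mice, Gabrg3 and Grm7, and none was lower. That is 4.88% of the receptor genes against 14.3% of all clusters (7.69% higher and 6.58% lower). The direction of these counts turned with the scaling, as it did over all clusters. When each array was centred on its median, none was higher and 3 were lower, Gabrd, Gabrr2 and Grik5. That is 7.32% against 16.5% of all clusters (1718 higher and 4147 lower). Gabrg3 and Grm7 then had unadjusted p values of 0.205 and 0.0558 in limma. Quantile normalization gave 2 higher and 2 lower, or 9.76% against 15.6% of all clusters (2384 higher and 3166 lower). The receptor genes did not all share a direction, since 20 had a positive and 21 a negative log2 fold change. Their median was -0.00663, beside -0.000925 over all clusters. Changes were small, with 34 of 41 below 0.2 in absolute log2 fold change. For 37 of 41 genes, or 90.2%, the 95% interval lay within a 1.5-fold change in either direction, as it did for 77.8% of all clusters. The exceptions were Gabrd, Gabre, Gabrq and Gabrr2, all of them GABA-A genes whose interval reached beyond a 1.5-fold decrease.

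**Figure D1:**
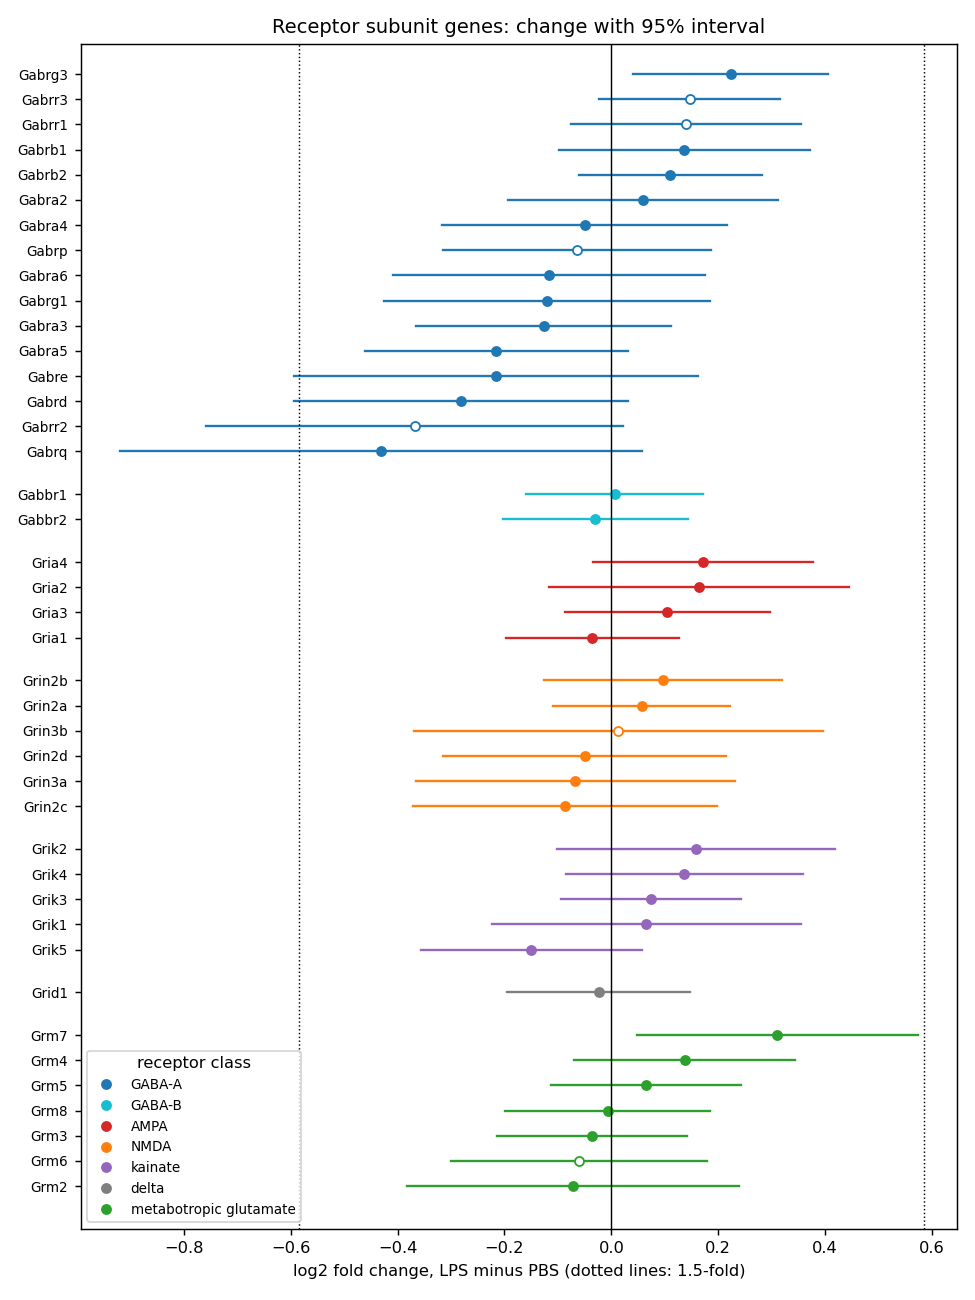
Log2 fold change (LPS minus PBS, 3 mice each) of the 41 receptor genes on the horizontal axis, by receptor class, with lines for the limma 95% interval and dotted lines at 1.5-fold. Open points mark the 6 genes not above background on any array, and the intervals of 37 genes stay between the dotted lines.

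Background was taken on each array as the 95th percentile of 1210 olfactory and vomeronasal receptor clusters, which are hardly transcribed in brain, and lay between 6.46 and 6.64. By that measure 35 receptor genes were above background on all 6 arrays and 6 on none. Below background were Gabrr1, Gabrr2 and Gabrr3, which encode the rho subunits known from retina, Gabrp, the pi subunit of peripheral tissues, Grm6, the receptor of retinal bipolar cells, and Grin3b. For these 6 genes log2 values are given where needed and no fold. Of the 35 expressed genes, 32 had an interval within 1.5-fold.

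The groups did not overlap for 8 receptor genes. All 3 LPS values lay above all 3 PBS values for 7 of 41 genes, or 17.1%, against 9.73% of all clusters. These were Gabrb2, Gabrg3, Gria3, Grik3, Grm7 and the below-background genes Gabrr1 and Gabrr3. All LPS values lay below the PBS values for 1 gene, Gabra5, or 2.44%, against 10.3% of all clusters. None of the 8 passed the adjusted test.

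Among GABA-A genes, which had a median log2 fold change of -0.09 with 6 positive and 10 negative members, Gabrg3 had the smallest p. Gabrg3 encodes the gamma 3 subunit, a rarer partner of the subunits that give receptors their benzodiazepine site. Its log2 values were 11.27, 11.25 and 11.27 in LPS-treated mice, against 11.14, 11.01 and 10.98 in PBS-treated mice. The LPS values were tightly grouped and all lay above the PBS values. The difference was 0.22 ± 0.08 on the log2 scale (SE), or 1.17-fold with an interval of 1.03 to 1.32, and limma gave an adjusted p of 0.287. The difference stayed between 0.13 and 0.27 under every alternative run, including 0.23 without LPS replicates 1 and 2, while the adjusted p ran from 0.0337 with array weights to 0.567.

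Gabrq, which encodes the theta subunit, had the largest negative difference of the 41 genes. Its log2 values were 8.26, 7.83 and 8.70 in LPS-treated mice, against 8.61, 8.73 and 8.74 in PBS-treated mice. LPS replicates 1 and 2 lay below every PBS array, whereas LPS replicate 3 lay among them. The log2 fold change was -0.43 ± 0.21 (SE), or a fold of 0.742 with an interval of 0.529 to 1.04, and the adjusted p of limma was 0.392. Without LPS replicate 3 it was -0.65, with an adjusted p of 0.0345, in a fit that called 10.7% of all clusters. Without LPS replicates 1 and 2, it was 0.01 and the difference was gone.

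Gabrd encodes the delta subunit, which forms the receptors outside synapses that carry tonic inhibition in dentate gyrus and cerebellum. Its log2 values were 8.78, 8.56 and 8.94 in LPS-treated mice, against 9.08, 8.86 and 9.20 in PBS-treated mice, with LPS replicate 3 above PBS replicate 2. The log2 fold change was -0.28 ± 0.13 (SE), with an interval of -0.59 to 0.03 and a limma adjusted p of 0.386. It was -0.18 without LPS replicate 2, -0.37 without LPS replicate 3 and -0.10 without LPS replicates 1 and 2. Gabra6, whose alpha 6 subunit pairs with delta in cerebellar granule cells, had a log2 fold change of -0.12 with an interval of -0.41 to 0.17. Gabra4, the alpha 4 partner of delta in forebrain, had -0.05 with an interval of -0.32 to 0.22.

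Gabra5 encodes the alpha 5 subunit, found largely outside synapses in hippocampus and known for its part in learning. Log2 values were 11.80, 11.58 and 11.93 in LPS-treated mice, against 11.961, 12.001 and 11.992 in PBS-treated mice, and the groups did not overlap. The log2 fold change was -0.22 with an interval of -0.46 to 0.03, and the adjusted p of limma was 0.394. LPS replicate 3 lay closest to the PBS arrays here too. The alpha 2 subunit gene Gabra2, whose receptors mediate the calming effect of benzodiazepines, had a log2 fold change of 0.06 with an interval of -0.19 to 0.31.

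The beta subunits, which complete the GABA binding site, both had positive values. Gabrb1 had a log2 fold change of 0.14 with an interval of -0.10 to 0.37. Gabrb2 was the 1 receptor gene with several clusters of its own, and they did not move alike. The brightest, used for all counts, had log2 values of 12.64, 12.59 and 12.68 in LPS-treated mice, against 12.57, 12.49 and 12.52 in PBS-treated mice. Another cluster had a log2 fold change of 0.09, again with all LPS values above the PBS values. The remaining cluster had -0.14, with all LPS values below the PBS values, at 12.09, 12.12 and 12.18 in LPS-treated mice, against 12.28, 12.22 and 12.29 in PBS-treated mice. None of the clusters passed the test, with adjusted p values of 0.512, 0.602 and 0.420, and the sources used here do not say which transcripts each detects.

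Of the remaining GABA-A genes, Gabrg1, which encodes the gamma 1 subunit, had a log2 fold change of -0.12 with an interval of -0.43 to 0.18. The rho gene Gabrr2 had log2 values of 6.30, 5.81 and 5.79 in LPS-treated mice, against 6.14, 6.51 and 6.36 in PBS-treated mice. Its groups overlapped, and every value was below background.

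The GABA-B receptor genes differed little between the groups. Gabbr1, whose subunit binds GABA, had log2 values of 12.49, 12.55 and 12.50 in LPS-treated mice, against 12.49, 12.49 and 12.55 in PBS-treated mice. Gabbr2, whose subunit couples to the G protein, had 12.16, 12.21 and 12.17 in LPS-treated mice, against 12.27, 12.14 and 12.22 in PBS-treated mice. The groups overlapped for both genes. The log2 fold changes were 0.01 for Gabbr1, with an interval of -0.16 to 0.17, and -0.03 for Gabbr2, with an interval of -0.20 to 0.14.

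**Figure D2:**
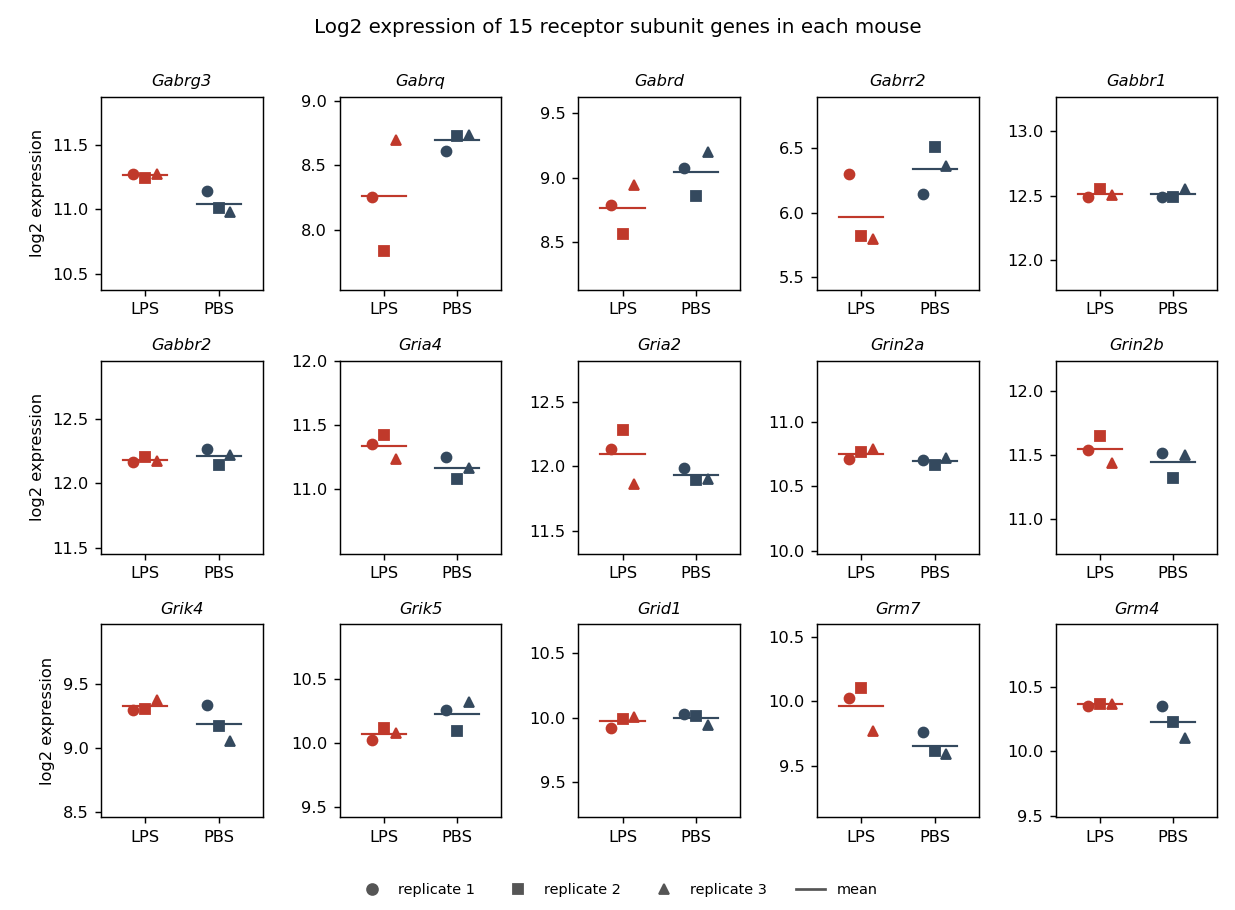
Log2 expression of 15 receptor genes in each LPS-treated and PBS-treated mouse, with symbols for the replicate number, lines for group means and the same span of log2 units in every panel. Gabrg3 and Grm7 are the panels in which all 3 LPS values lie above the PBS values, and Gabrq is the one in which LPS replicate 2 lies farthest below them.

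Of the AMPA receptor genes, which encode the subunits that carry fast excitation, 3 had positive values and the class median was 0.13. Gria4 had log2 values of 11.35, 11.42 and 11.23 in LPS-treated mice, against 11.25, 11.08 and 11.16 in PBS-treated mice. Only LPS replicate 3 lay within the PBS range. The log2 fold change was 0.17 with an interval of -0.03 to 0.38, and the adjusted p of limma was 0.411. Gria2 encodes the subunit whose edited form keeps calcium out of the channel. Its log2 values were 12.14, 12.28 and 11.86 in LPS-treated mice, against 11.99, 11.90 and 11.90 in PBS-treated mice, so that LPS replicates 1 and 2 were the highest of all arrays and replicate 3 the lowest. The log2 fold change was 0.16 with an interval of -0.12 to 0.44 over all arrays, 0.28 without LPS replicate 3 and -0.07 without LPS replicates 1 and 2. Gria3 had 0.10 with an interval of -0.09 to 0.30, and Gria1, which traffics during synaptic potentiation, had -0.04 with an interval of -0.20 to 0.13.

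NMDA receptor genes had a median log2 fold change of -0.02, with 3 positive and 3 negative. Grin2a and Grin2b encode the glutamate-binding subunits that replace each other as the forebrain matures. Grin2a had log2 values of 10.71, 10.76 and 10.79 in LPS-treated mice, against 10.70, 10.67 and 10.72 in PBS-treated mice. Grin2b had 11.54, 11.65 and 11.44 in LPS-treated mice, against 11.52, 11.32 and 11.50 in PBS-treated mice. Both overlapped between the groups, with log2 fold changes of 0.06 for Grin2a (interval -0.11 to 0.22) and 0.10 for Grin2b (interval -0.13 to 0.32). Grin2c, typical of mature cerebellar granule cells, had -0.09, Grin2d, of early and subcortical receptors, had -0.05, and Grin3a, which lowers calcium entry, had -0.07. The intervals of these 3 genes lay between -0.37 and 0.23.

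Among kainate receptor genes, 4 of 5 had positive values and the median log2 fold change was 0.07. Grik1, Grik2 and Grik3 encode subunits that can form channels by themselves, and had log2 fold changes of 0.07, 0.16 and 0.07. Grik3 was the one of them whose groups did not overlap, with 10.084, 10.116 and 10.142 in LPS-treated mice, against 9.986, 10.075 and 10.058 in PBS-treated mice. Grik4 and Grik5 encode the high-affinity subunits, which need one of those partners, and they had opposite signs. Grik4 had log2 values of 9.29, 9.31 and 9.37 in LPS-treated mice, against 9.34, 9.17 and 9.05 in PBS-treated mice, and a log2 fold change of 0.14 (interval -0.09 to 0.36), or 0.07 without PBS replicate 3 and 0.21 without PBS replicate 1. Grik5 had 10.02, 10.12 and 10.08 in LPS-treated mice, against 10.25, 10.09 and 10.32 in PBS-treated mice, and a log2 fold change of -0.15 (interval -0.36 to 0.06). A single PBS replicate lay inside the LPS range in each case, replicate 1 for Grik4 and replicate 2 for Grik5. Grid1, the delta receptor gene, whose product binds cerebellins across the synapse, had 9.92, 9.99 and 10.01 in LPS-treated mice, against 10.03, 10.01 and 9.95 in PBS-treated mice, with a log2 fold change of -0.02 (interval -0.20 to 0.15).

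Metabotropic glutamate receptor genes had a median log2 fold change of -0.01, and Grm7 had the largest positive difference of all 41 genes. Its product sits in the active zone of nerve terminals and lowers transmitter release when glutamate is high. Log2 values were 10.02, 10.11 and 9.77 in LPS-treated mice, against 9.76, 9.61 and 9.59 in PBS-treated mice. The groups did not overlap, but LPS replicate 3 was close to PBS replicate 1. The log2 fold change was 0.31 ± 0.11 (SE), or 1.24-fold with an interval of 1.03 to 1.49, and the adjusted p of limma was 0.298. Without LPS replicate 3 it was 0.41 with an adjusted p of 0.0398, and without LPS replicates 1 and 2 it was 0.11 with an adjusted p of 0.795.

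Grm4, another receptor of nerve terminals and prominent in cerebellum, had log2 values of 10.35, 10.37 and 10.37 in LPS-treated mice, against 10.35, 10.23 and 10.10 in PBS-treated mice. PBS replicate 1 overlapped with the LPS values, and the log2 fold change was 0.14 with an interval of -0.07 to 0.34, or 0.07 without PBS replicate 3. The remaining expressed genes of the class were closer to 0. Grm5, which raises calcium through phospholipase C in dendrites, had 0.06 with an interval of -0.11 to 0.24. Grm2 and Grm3, which lower cyclic AMP in terminals and, for Grm3, in astrocytes, had -0.07 and -0.04, with intervals of -0.38 to 0.24 and -0.21 to 0.14.

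Because subunits of 1 receptor can replace each other, the difference between a pair of subunit genes was also taken within each array, where the scaling of the array matters little. Grin2a minus Grin2b was -0.83, -0.88 and -0.65 in LPS-treated mice, against -0.82, -0.66 and -0.78 in PBS-treated mice. Gria1 minus Gria2 was -0.28, -0.46 and 0.01 in LPS-treated mice, against -0.11, 0.02 and -0.04 in PBS-treated mice. Grm2 minus Grm3 was -2.57, -2.40 and -2.46 in LPS-treated mice, against -2.66, -2.11 and -2.55 in PBS-treated mice. In every pair the groups overlapped. The mean differences between LPS and PBS were -0.04, -0.20 and -0.04, with two-sided exact permutation p values of 0.6, 0.3 and 0.9 and adjusted values of 0.9 for each of the 3 pairs, where 0.1 is the smallest p that 3 against 3 mice allow.

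Several GABA-A genes lie next to each other in the genome, and the neighbours did not share a direction except on the X chromosome. Gabrg3 and Gabra5 on chromosome 7 had log2 fold changes of 0.22 and -0.22. Gabra6 and Gabrb2 on chromosome 11 had -0.12 and 0.11, and Gabrg1, Gabra2, Gabra4 and Gabrb1 on chromosome 5 had 2 positive and 2 negative values. The X-linked run of Gabre, Gabra3 and Gabrq was negative for each gene. Gabre, the epsilon subunit gene, had log2 values of 7.35, 7.79 and 7.87 in LPS-treated mice, against 8.08, 7.77 and 7.81 in PBS-treated mice. Gabra3, the alpha 3 gene, had 11.67, 11.75 and 11.97 in LPS-treated mice, against 11.918, 11.996 and 11.862 in PBS-treated mice. Each gene of the run was lower in LPS replicates 1 and 2 than in LPS replicate 3, by 0.30 for Gabre, 0.26 for Gabra3 and 0.66 for Gabrq in the mean. For Gabre, LPS replicate 2 at 7.79 was close to replicate 3 at 7.87. The pattern was not particular to the run. Over the 16 GABA-A genes, the median of replicates 1 and 2 minus replicate 3 was -0.17, with -0.32 for Gabrg1, -0.27 for Gabrd and -0.24 for Gabra5. Only Gabrr2 and Gabrp, both below background, had positive values. The log2 fold changes were -0.22 for Gabre and -0.13 for Gabra3, and no gene of the run passed the test.

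Receptors with epsilon, alpha 3 and theta subunits are known from hypothalamus and from monoamine nuclei of the brainstem and midbrain. The lists at hand that come nearest, hypothalamus and thalamus and midbrain, are given beside them. The second list mixes thalamus and midbrain genes, of which Th and Slc6a3 are the dopaminergic ones, and no list was made for brainstem nuclei. The genes named from these lists were chosen after their values were seen. Th, which encodes the enzyme that starts dopamine synthesis, had log2 values of 7.28, 7.35 and 8.00 in LPS-treated mice, against 7.88, 7.92 and 8.11 in PBS-treated mice. Slc6a3, the dopamine transporter gene, had 8.42, 8.06 and 9.15 in LPS-treated mice, against 9.02, 9.18 and 8.93 in PBS-treated mice. Avp, which encodes vasopressin, had 6.75, 6.73 and 7.25 in LPS-treated mice, against 7.46, 7.69 and 7.55 in PBS-treated mice. As for Gabrq, LPS replicates 1 and 2 were the lowest arrays for each of these. Of the other markers in these lists, Pmch, Trh, Prkcd and Gbx2 shared that pattern. Hcrt, Oxt, Sim1, Lef1, Slc17a6 and Tcf7l2 did not. Hcrt, the orexin gene, had the smallest p of the hypothalamic list and its lowest value in LPS replicate 3, at 6.99, 6.88 and 6.86 in LPS-treated mice, against 7.22, 7.38 and 7.26 in PBS-treated mice. Lef1, Slc17a6, Tcf7l2 and Oxt had positive log2 fold changes of 0.29, 0.06, 0.04 and 0.02. Over the whole lists, 4 of 6 hypothalamic markers had lower values with an unadjusted p under 0.05 and none was called. The log2 of their summed values ran from 9.73 to 10.08 after LPS and from 10.22 to 10.50 after PBS. Of 7 thalamus and midbrain markers, 1 was higher and none lower at that level, and the sums ran from 11.78 to 12.07 after LPS and from 11.94 to 12.02 after PBS. Th and Trh also stood in a list of 7 olfactory bulb markers, so their values cannot be assigned to 1 region. In that list 2 were lower and none higher at that level, and none was called. Its sums ran from 9.48 to 9.79 after LPS and from 9.97 to 10.04 after PBS. Oxt, a defining hypothalamic marker, was above background on 5 arrays and Sim1 on none. The part of these cells in the values of the X-linked genes was not tested.

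**Figure D3:**
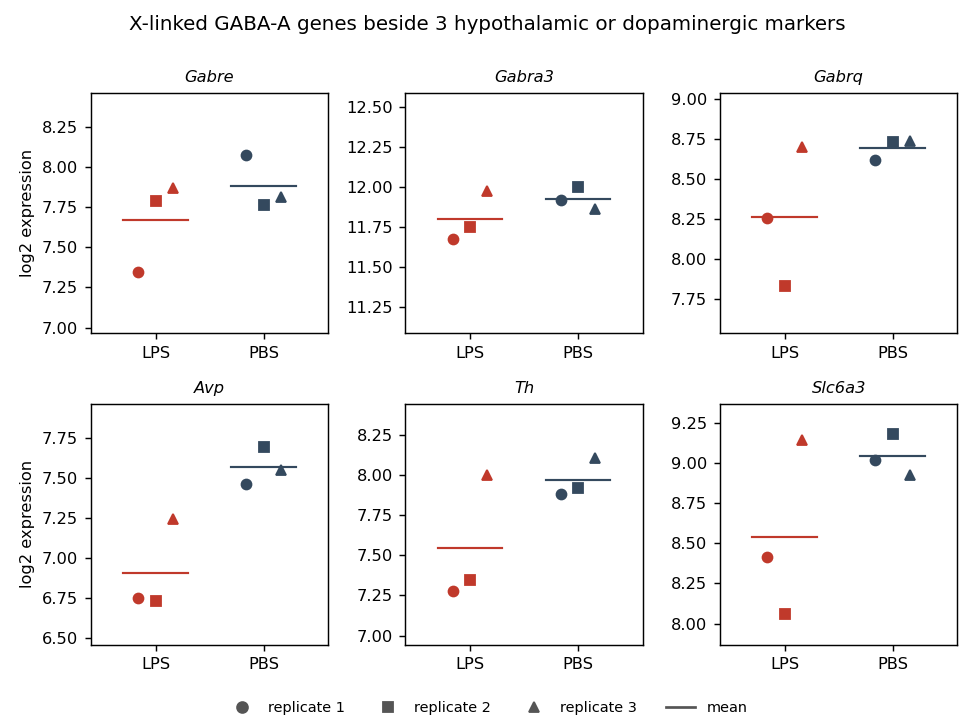
Log2 expression in each LPS-treated and PBS-treated mouse of the X-linked GABA-A genes Gabre, Gabra3 and Gabrq above those of the hypothalamic gene Avp and the dopaminergic genes Th and Slc6a3, with symbols for the replicate number and lines for group means. For Gabrq, Avp, Th and Slc6a3, LPS replicates 1 and 2 lie below all other arrays, with Gabrq at 8.26 and 7.83.

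The split among LPS arrays reached some receptor genes. LPS replicate 3 lay on 1 side of replicates 1 and 2 by more than the PBS arrays spanned for 8 of 41 receptor genes, or 19.5%, and for 32.7% of all clusters, a description with no test. Gabra3, Gabra5, Gabrq and Gabrr1 were higher in replicate 3, and Gria2, Grik1, Grik2 and Grm7 were lower. Without LPS replicate 3, 9 of 41 receptor genes had an unadjusted p under 0.05, or 22.0%, against 27.4% of all clusters, with Gabrg3, Gria2, Gria4, Grik2 and Grm7 higher and Gabra3, Gabra5, Gabrd and Gabrq lower. Of these, Gabrq and Grm7 passed the adjusted threshold, or 4.88% against 10.7% of all clusters. What sets LPS replicate 3 apart from the others was not tested.

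Genes that make, move or anchor these receptors and their transmitters were counted from lists chosen by function. Of 69 listed genes 63 were measured, and none passed the limma test, against 0.714% of all clusters. For 62 of them the interval lay within 1.5-fold, as it did for 77.8% of all clusters. At an unadjusted p under 0.05, 4 were lower in LPS-treated mice, or 6.35% against 6.58% of all clusters, and none was higher. All 3 LPS values lay below the PBS values for 8 partner genes, or 12.7% against 10.3% of all clusters, namely those 4 with Gad1, Gabarapl2, Gabarap and Cacng2. They lay above for 1, Nsf, or 1.59% against 9.73%. Slc32a1, which loads GABA into vesicles, had log2 values of 9.31, 9.20 and 9.43 in LPS-treated mice, against 9.527, 9.502 and 9.546 in PBS-treated mice. Its list of 7 GABA synthesis and transport genes also held Slc6a13, a GABA transporter of the meninges, with a log2 fold change of 0.28 (interval -0.01 to 0.57). Gad1 and Gad2, which make GABA, had -0.12 and 0.02. The 9 glutamate synthesis and transport genes ran from -0.21 for the vesicular transporter gene Slc17a8 to 0.06, and Glul, the glutamine synthetase gene of astrocytes, had -0.14.

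Among 15 GABA receptor partners, Ubqln1, which stabilizes GABA-A receptors, had log2 values of 10.81, 10.84 and 11.03 in LPS-treated mice, against 11.07, 11.15 and 11.12 in PBS-treated mice. Gabarapl2, related to a receptor trafficking protein, had a log2 fold change of -0.20 (interval -0.44 to 0.03), and Gphn, the gephyrin scaffold gene, had 0.10 (interval -0.09 to 0.28). Among 32 glutamate receptor partners, Homer3 and Cnih2 had the smallest p values of all partner genes. Homer3, a scaffold of metabotropic glutamate receptors strong in Purkinje cells, had log2 values of 7.85, 7.82 and 7.85 in LPS-treated mice, against 8.17, 8.11 and 8.36 in PBS-treated mice. Its log2 fold change was -0.37 ± 0.09 (SE), or a fold of 0.772, with a limma adjusted p of 0.166. Cnih2, the cornichon that slows AMPA receptor closing, had 12.065, 12.005 and 12.236 in LPS-treated mice, against 12.426, 12.435 and 12.438 in PBS-treated mice. Its log2 fold change was -0.33 ± 0.09 (SE), or a fold of 0.795, with an adjusted p of 0.191, and it was the single partner gene called without LPS replicate 3. Homer1 had the 1 interval beyond 1.5-fold, from -0.12 to 0.73 around a log2 fold change of 0.31.

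Markers of other cell types moved in part. Of 6 endothelial markers 4 were called higher, and the log2 of their summed values ran from 12.02 to 12.19 after LPS and from 10.99 to 11.35 after PBS. Of 9 interneuron markers 1 was called lower and 4 had lower values with an unadjusted p under 0.05, and their sums ran from 13.82 to 14.05 after LPS and from 14.17 to 14.20 after PBS. Cerebellar markers, which bear on Gabra6, Gabrd, Grin2c and Grm4, were higher for 3 of 9 at an unadjusted p under 0.05, none was called, and their sums ran from 13.85 to 13.92 after LPS and from 13.71 to 13.87 after PBS. The part of these cell types in the receptor values was not tested.

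Scaling decided the sign of several small values. When each array was centred on its own median, the median of all clusters became -0.09 and that of the receptor genes -0.10, with 13 positive and 28 negative. AMPA genes then had a median of 0.04 and kainate genes of -0.02, and GABA-A genes one of -0.18. The signs of Gabbr1, Gabbr2, Gabra2, Gria1, Grik1, Grik3, Grin2a, Grin3b, Grm3 and Grm5 were not kept over centring and quantile normalization, so no direction can be read for these 10 genes. No receptor gene was called under either scaling, where centring called 0.425% and quantile normalization 0.568% of all clusters.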

How the data were processed

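The authors made the deposited log2 expression values by robust multichip average (RMA) normalization. They were used without further normalization. Gene names came from GEO's platform annotation, brought up to RefSeq symbols. LPS-treated mice were compared with PBS-treated mice with limma 3.58.1 (lmFit, eBayes; R 4.3.3). The two-sided p values were adjusted by Benjamini-Hochberg over all 35556 clusters, and genes with an adjusted p under 0.05 were called. The study's methods name a one-way analysis of variance and, for values normalized in another program, an unpaired test. Between 2 groups with equal variances both give the same p, and this test was run as an alternative. Intervals are 95% confidence intervals, whose width depends on the spread of each gene as limma estimates it and on the number of arrays. Members, lists and tests were chosen with earlier results of these data known. Values of every array are given for the 2 genes with the smallest p in each receptor class and the 3 with the largest positive and negative differences, for the 2 with the smallest p in each partner list, for check genes, and for further genes chosen after their values were seen. Of 5 planned subunit pairs, 3 were computed and the others were not analysed here. Alternatives were other tests, scalings, filters, weights, cluster sets, a replicate block and leaving out arrays. The procedure was tested on simulated data.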

Additional observations from a re-analysis of the deposited data

How the results depend on the processing

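No receptor gene and no partner gene was called under the methods' t-test, eBayes with a trend or robust, either scaling, the filter on dim clusters, clusters naming 1 gene, the mean of a gene's clusters or a threshold of 0.1. Of all clusters, the t-test called 0.0141%, a trend or robust 0.709%, quantile normalization 0.568% and centring 0.425%. The filter called 1.03%, clusters naming 1 gene 1.64%, the mean of a gene's clusters 0.727% and the threshold of 0.1 1.18%. At such shares a set this small can hold no call without differing from other clusters. Array weights called 6 receptor genes (Gabra3, Gabre, Gabrg3, Gabrq, Grik2 and Grm7) and 9 partner genes, in a fit that called 23.4% of all clusters. Leaving out 1 array gave 0 to 2 receptor genes and 0 to 1 partner gene called, the higher counts without LPS replicate 3. That fit called 10.7% of all clusters, and leaving out any other array called 0.208% to 0.321%. Receptor genes at an unadjusted p under 0.05 numbered 2, but 5 with a trend, 4 after quantile normalization, 3 (all lower) after centring, 5 over clusters naming 1 gene, 12 with array weights and 0 to 9 with 1 array left out, with 0 without PBS replicate 3, 1 without LPS replicate 1, 1 without LPS replicate 2 and 9 without LPS replicate 3. Under each of these settings the share of receptor genes lay below that of all clusters. It was 12.2% against 14.8% with a trend, 9.76% against 15.6% after quantile normalization and 7.32% against 16.5% after centring. Over clusters naming 1 gene it was 12.2% against 15.9%, with array weights 29.3% against 39.2%, and without LPS replicate 3 22.0% against 27.4%. The median log2 fold change of the receptor genes was -0.01 and moved to -0.10 when arrays were centred on their medians. Same-numbered arrays deviated from their group means with correlations of 0.09, -0.05 and 0.10, so the numbers were not taken as pairs; with the replicate block 0 receptor genes were called and 3 had an unadjusted p under 0.05.

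Of 254 comparisons of 15 single genes with an alternative, 236 kept their direction and side of the threshold, 5 passed it and 13 changed sign. The sign changes were Gabbr2 at 0.0067 after quantile normalization, Gabbr1 at -0.0848 and Grin2a at -0.0346 after centring, Gabbr1 at -0.0127 with array weights, and, with 1 array left out, Gabbr1 from -0.0128 to 0.0258 and Grid1 from -0.0487 to 0.00237. Without LPS replicates 1 and 2, Gria2 was at -0.0687, Grid1 at 0.0102, Gabbr1 at -0.00723, Grin2b at -0.0062 and Gabrq at 0.00666, with the spread of the lone LPS array taken from the PBS arrays. The cause was not tested.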
